A study of Zea mays with 10 samples.

Results

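Prophase I anthers of the maize mutant ms28 were compared with prophase I anthers of the inbred line B73, across every feature of the anther expression table that reached 1 TPM (a transcript abundance scaled to a fixed library total) in at least 2 of the 4 anther libraries. Of 25460 features in that table, 20946 were tested: 20912 gene models and 34 miRNA loci. The series holds 10 libraries in all, and 4 of them enter this comparison: 2 of whole B73 anthers and 2 of whole ms28 anthers, both at prophase I. The maize reference genome was built from B73. Plants homozygous for ms28 are male sterile. Neither genotype carries a further treatment or transgene in the labels. Plants grew in a field or in a greenhouse, per the labels' protocols, and which of these each library came from, the age of the plants and whether ms28 was bred into B73 are not given in the sources used here. Nothing says that the libraries of a genotype came from separate plants, so the spread behind each p-value is that among these libraries and may be technical.

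In the anther, meiotic cells develop inside somatic wall layers, of which the tapetum feeds them. Grass anthers make large amounts of phased small interfering RNAs (phasiRNAs). MIR2118 directs the cutting of precursors of the 21-nt class, made mostly before meiosis, and MIR2275 that of a longer class, made mostly during meiosis. ARGONAUTE proteins load such small RNAs, and the ms28 locus has been reported to encode a protein of this family. A miRNA locus in the table stands for the transcript its miRNA is cut from, not for the mature miRNA.

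Gene models carry only an ID of the form Zm00001d plus a number. The reference table used here matched 0 of the 25412 gene models of the anther table and 47 of its 48 miRNA loci, so marker genes of anther cell types and the mutated locus were not checked by name. No gene model is given a function below. Of the 2 anther trigger families, all 3 MIR2118 loci and all 3 MIR2275 loci were listed in the table at 1 TPM or more in every anther library. TPM is also corrected for transcript length. In whole anthers, fewer cells of a type and less RNA per cell cannot be told apart.

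The libraries differed before any feature was tested. The median feature stood at 8.27 and 6.65 TPM in the B73 libraries against 4.45 and 4.66 TPM in the ms28 libraries, and the 100 most abundant features held 19.6 and 28.0% against 39.2 and 34.9% of TPM. Each library was therefore centred on its own median as log2(TPM + 1). The added 1 compresses changes of low features. The medians subtracted were 3.72 and 3.43 in B73 and 2.94 and 3.00 in ms28. With the added 1, features near 0 TPM are therefore also moved upward in ms28 by the centring. After centring, 281 features lay at least 4-fold apart between the B73 libraries and 121 between the ms28 libraries. Across genotypes the number was 614 and 519 for B73 replicate 1 and 354 and 272 for B73 replicate 2, in each case against ms28 replicates 1 and 2. B73 replicate 2 and ms28 replicate 2 were thus separated by fewer such features than the B73 libraries were from each other. Presence against near absence of a transcript, read in deposited TPM without centring, divided the genotypes more clearly. Only 6 features between the B73 libraries and 5 between the ms28 libraries stood at 5 TPM or more in one library and at 0.1 TPM or less in the other, against 31 to 85 in the 4 pairs across genotypes. In those 4 pairs, 23 to 67 features were near absent in ms28 and 8 to 18 in B73. The median feature also lay lower in ms28 in deposited TPM, and how far this shift enters the division was not tested.

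**Figure D1:**
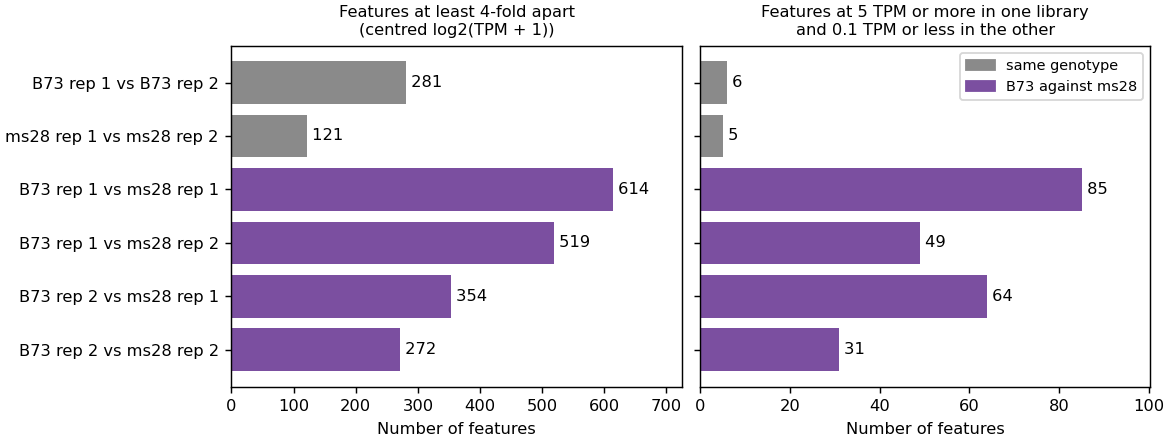
Number of features that differ between each pair of the 4 prophase I anther libraries (left, at least 4-fold on the centred log2(TPM + 1) scale; right, at 5 TPM or more in one library and at 0.1 TPM or less in the other; grey, same genotype; purple, B73 against ms28). On the right the pairs within a genotype hold 6 and 5 features and the pairs across genotypes 31 to 85, while on the left the B73 pair (281) exceeds 1 of the 4 pairs across genotypes (272).

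In ms28 anthers 21 features rose and 25 fell, out of 20946 tested. That is 0.1% of features called higher, 0.119% called lower and 0.22% in all. The risers were mostly transcripts near absence in B73: 12 of the 21 stood at 0.1 TPM or less in both B73 libraries, and 9 were listed at 0 in both. Their ms28 means were modest, with a median of 5.64 and a highest of 96.2 TPM. The fallers came from higher levels, with B73 means from 5.77 to 115 TPM, and 12 of the 25 stood at 0.1 TPM or less in both ms28 libraries. In 18 of the 21 risers and 17 of the 25 fallers the lower genotype stood under 1 TPM in both libraries. These passed the filter only through the higher genotype, so a difference was built into their passing. Changes ran from 2.17 to 5.38 on the log2 scale among the risers and from -2.14 to -6.13 among the fallers. In deposited TPM all 21 risers had both ms28 values above both B73 values, as did 3.63% of features tested, and all 25 fallers had them below, as did 68.3%. After centring these background shares were 33.9 and 15.3%.

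A feature was called where its limma p, adjusted by the Benjamini-Hochberg method, was under 0.05. The smallest adjusted p was 0.0238, and 2848 features (13.6%) had an unadjusted p under 0.05. Leaving out 1 library leaves 1 residual degree of freedom, with the spread taken from the other genotype alone. Without B73 replicate 1, ms28 replicate 1 or ms28 replicate 2, limma called 0 features, with 2402, 1376 and 1764 at an unadjusted p under 0.05. Without B73 replicate 2 it called 75 (20 higher and 55 lower), 30 of them among the 46. All 46 features kept their direction in each of these 4 fits. This was fixed in advance, because their genotypes did not overlap after centring. The log2 change of Zm00001d020667 ranged from 4.37 to 4.71 over these fits, and that of Zm00001d052137 from -3.18 to -2.65. With values as deposited, where the median change of all features was -0.49 on the log2 scale, 17 were called higher and 50 lower.

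**Figure D2:**
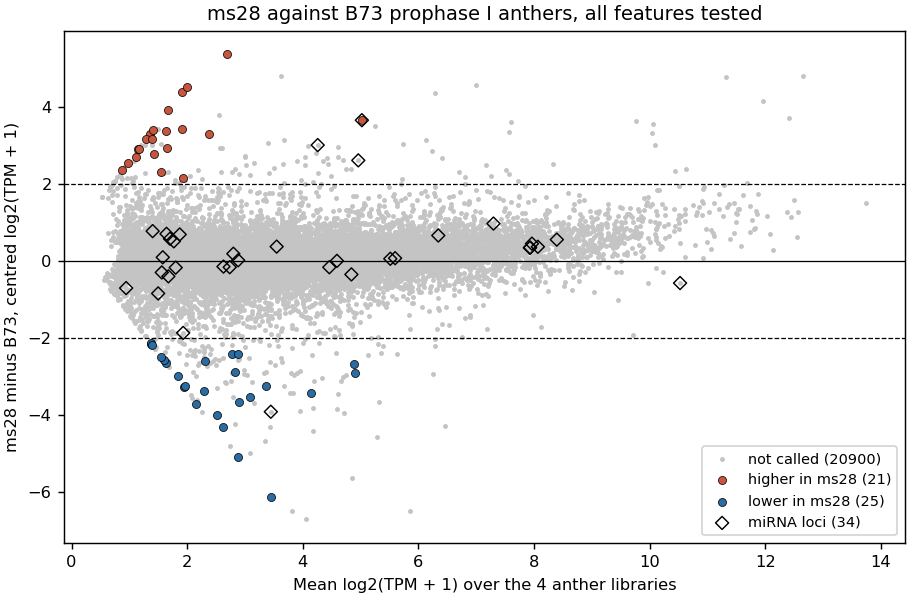
Change between genotypes (ms28 minus B73, centred log2(TPM + 1)) against mean level over the 4 anther libraries for each of the 20946 features tested, with the 21 called higher in red, the 25 called lower in blue and the 34 miRNA loci as open diamonds; dashed lines mark a 4-fold change. The called risers other than MIR399d lie at low mean levels, and the grey cloud bends upward at the highest mean levels.

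Of the risers, Zm00001d041772 reached the highest level of any gene model. It read 0.190 and 0.280 TPM in the B73 libraries and 41.6 and 25.8 TPM in the ms28 libraries. The genotypes were far apart beside a spread of 33.7 ± 11.1 TPM in ms28 (SD, n = 2), and its log2 change was 5.38 (SE 0.31, limma adjusted p = 0.024). Zm00001d020667 read 0 and 0.040 TPM in B73 and 14.6 and 14.5 TPM in ms28. Its ms28 libraries nearly coincided, and its log2 change was 4.54 (SE 0.21, limma adjusted p = 0.024). The germ cell table does not list this gene model.

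Among the fallers, Zm00001d009902 changed most. It read 141 and 87.9 TPM in B73 and 0.040 and 0.070 TPM in ms28, so a transcript at percentile 93.9 of gene models in B73 anthers stood at percentile 3.13 in ms28 (log2 -6.13, SE 0.21, limma adjusted p = 0.024). Zm00001d003452 read 20.1 and 18.0 TPM in B73 and was listed at 0 in both ms28 libraries (log2 -3.72, SE 0.18, limma adjusted p = 0.024). Others fell and were not lost. Zm00001d052137 read 115 and 88.5 TPM in B73 and 6.27 and 9.85 TPM in ms28. Zm00001d002549 read 73.6 and 67.9 TPM in B73 and 3.45 and 3.27 TPM in ms28. They stood at percentiles 61.9 and 43.6 of gene models in ms28 anthers. In both of these the ms28 values lay well clear of the B73 values (log2 -2.92 and -3.44, SE 0.24 and 0.18, limma adjusted p = 0.042 and 0.024).

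A stricter view of loss asks for 5 TPM or more in both libraries of a genotype and 0.1 TPM or less in both of the other. By this rule 17 features were present in B73 and absent in ms28, and 4 were present in ms28 and absent in B73. Of these, 11 and 4 were among the calls. The rule reads deposited TPM, in which 68.3% of features tested lay lower in ms28 without overlap and 3.63% higher. Over the whole anther table, 404 and 398 features were listed at 0 in the ms28 libraries against 174 and 222 in the B73 libraries. How far the 17 against 4 reflects this general shift was not tested. Of the 17, 16 are listed in the germ cell table. Of these 16, 11 were also at 0.1 TPM or less in both ms28 germ cell libraries. In 10 of the 11, both B73 germ cell libraries held 1 TPM or more. The share of all features at these germ cell levels was not counted. Over all anther-tested features in that table, 27.7% lay lower in ms28 germ cells without overlap.

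The anther table lists 3058 features that the germ cell table does not, and 813 of them passed the filter for the anther fit. Of these, 4 were called (0.492%), against 42 of the 20133 tested features that both tables list (0.209%). Beside Zm00001d020667, the 4 hold Zm00001d012981, which read 17.5 and 19.4 TPM in B73 and 0.110 and 0.340 TPM in ms28 (log2 -3.39, SE 0.23, limma adjusted p = 0.030). The remaining 2 were below the level at which gene models were otherwise named and are given because the count is small. Zm00001d000909 read 10.7 and 6.90 TPM in B73 and was listed at 0 in both ms28 libraries. Zm00001d035807 read 0.10 and 0 TPM in B73 and 3.32 and 3.66 TPM in ms28. In each of the 4 the genotypes did not overlap, which held for every called feature and so adds no support.

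Isolated male germ cells at prophase I give a reading of the same features in 4 libraries that the anther fit did not use. Of the 21 risers 19 are listed there, and in 17 of them both ms28 germ cell libraries lay above both B73 ones. Over all anther-tested features in the germ cell table, 37.7% did so. Of the 25 fallers 23 are listed, and in 22 both ms28 germ cell libraries lay below both B73 ones, against 27.7% of all. None of these 42 listed features lay apart in the opposite direction. Zm00001d041772 read 0 and 0.062 TPM in B73 germ cells and 3.28 and 5.43 TPM in ms28 germ cells, below its ms28 anther level. Zm00001d009902 read 21.4 and 30.6 TPM in B73 germ cells and 0.130 and 0.086 TPM in ms28 germ cells.

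A limma fit of the germ cell table alone, with the same centring, called 11.8% of its features higher and 10.4% lower in ms28. Of the risers 16 passed its filter and 16 were called higher, and of the fallers 22 passed and 19 were called lower. Of those that passed, 14 risers and 14 fallers did so only because the higher genotype reached 1 TPM, so a difference was built into their passing. The 3 fallers tested and not called in germ cells were Zm00001d044986, Zm00001d033917 and Zm00001d026191, named here because of this count. Zm00001d044986 read 30.7 and 33.0 TPM in B73 anthers and 0.640 and 0.740 TPM in ms28 anthers. In germ cells it read 2.07 and 3.06 TPM in B73 and 1.6 and 1.2 TPM in ms28, which is apart in the same direction by a far smaller step (log2 -0.64, SE 0.25, limma adjusted p = 0.089). Zm00001d033917 went from 29.2 and 17.6 TPM to 1.13 and 1.11 TPM in anthers, with a germ cell log2 change of -0.53 (SE 0.25, limma adjusted p = 0.158). Zm00001d026191 went from 20.9 and 16.6 TPM to 1.10 and 1.74 TPM in anthers, with a germ cell log2 change of -0.36 (SE 0.37, limma adjusted p = 0.508). Whether these effects differ between anthers and germ cells was not tested here.

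**Figure D3:**
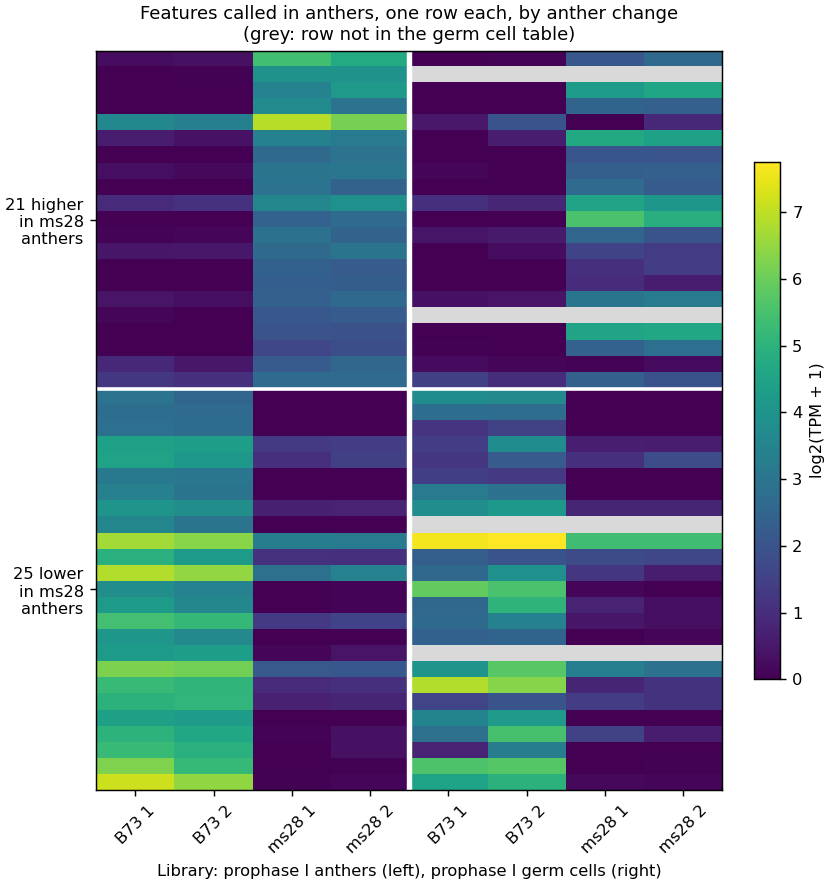
Level (log2(TPM + 1), colour) of the 46 features called in anthers, 1 row per feature ordered by anther change, in the 4 prophase I anther libraries (left) and the 4 prophase I germ cell libraries (right); grey rows are not in the germ cell table. The upper 21 rows are darker in B73 than in ms28 anthers and the lower 25 darker in ms28, and 17 of 19 and 22 of 23 listed rows are separated in the same direction in germ cells.

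Premeiotic B73 anthers show where the called gene models stood one stage earlier, by percentile rank over the 25412 gene models that both tables list. The risers had a median percentile of 17.2 before meiosis, 0.941 in B73 at prophase I and 54.2 in ms28 at prophase I. Of 20 ranked risers, 7 stood at least 20 points higher before meiosis than in B73 prophase I anthers. None could stand 20 points lower, because the risers' B73 prophase I percentiles ran only from 0.39 to 18.6. Over all 20912 gene models tested, 780 stood higher and 1819 lower by at least 20 points. Of 107 ranked gene models in the wider set at least 4-fold higher without overlap in ms28, 18 stood higher and 33 lower by that margin. The fallers had medians of 41.0, 71.4 and 5.43. Of 25 fallers, 16 stood at least 20 points lower before meiosis than in B73 at prophase I. A feature picked for a low or a high B73 level at prophase I tends to rank less extremely in any other library, so these counts are a description. Individual fallers differed in this respect. Zm00001d009902 was at percentile 18.8 before meiosis and 93.9 in B73 at prophase I, whereas Zm00001d002549 was at 84.9 and 90.6.

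IDs of this annotation are known to be numbered largely along the chromosomes. Positions were not checked here. In windows of 500 numbers, calls fell in 30 of the 108 windows that hold tested gene models. The adjoining pair of windows with most calls runs from number 12500 to 13499 and holds 10 calls among 585 tested gene models (1.71%), between numbers 12797 and 13188. The other 20327 gene models hold 35 calls (0.172%). Of the 10, 8 were lower and 2 higher in ms28. In germ cells 9 of the 10 passed the filter, and all 9 were called in the same direction, in a fit that called 11.8% of features higher and 10.4% lower. Of the 9, 6 passed the filter only through the higher genotype. The windows were picked for their calls, so this contrast carries no test, and no other window held more than 3 calls.

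A wider set shows what the calls leave out. At a change of at least 4-fold with no overlap after centring, 110 features (0.525%) were higher and 145 (0.692%) lower in ms28. Of the 110, 93 are listed in the germ cell table, where ms28 lay above B73 in 52 and below in 10. Of the 145, 136 are listed, with ms28 below in 100 and above in 7. Over all anther-tested features in that table, 37.7% lay above and 27.7% below. Transcripts of very high abundance were in this set without being called. In 10 of the 110 the ms28 mean was 1000 TPM or more, and limma called 0 of these 10. In 8 of the 10, B73 replicate 2 was itself at least 4-fold above B73 replicate 1. Zm00001d001829, picked as the most abundant of them after its values were seen, read 169 and 12963 TPM in B73 and 42159 and 18116 TPM in ms28. In ratio, its B73 libraries were farther apart than B73 replicate 2 was from either ms28 library (log2 4.82, SE 2.2, limma adjusted p = 0.411). Without B73 replicate 1 the log2 change was 1.55, and without B73 replicate 2 it was 8.09 and called (limma adjusted p = 0.045). Among the 145, 25 had a B73 mean of 100 TPM or more, and 2 of these were called. In 8 of the 25 the B73 libraries were at least 4-fold apart.

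Changes after centring also varied with the level of a feature. The median log2 change was 0.14 for the 4708 features with a mean log2(TPM + 1) under 2, and 0.05 for the 8907 features between 2 and 4. It was 0.13 between 4 and 6 (5045 features), 0.31 between 6 and 8 (1696 features), 0.55 between 8 and 10 (483 features) and 1.20 from 10 upward (107 features). In the last bin 81.3% of features were higher in ms28 without overlap, and 0% were lower. The B73 libraries differed along the same axis: replicate 2 exceeded replicate 1 by a median of 0.08, 0.03, 0.08, 0.16, 0.34 and 0.81 in these 6 bins, whereas the ms28 libraries differed by at most 0.05 in either direction. Against B73 replicate 2 alone the medians of the last bin were 0.51 and 0.66, and against B73 replicate 1 alone 1.49 and 1.69, for ms28 replicates 1 and 2. With quantile normalization the median of the last bin was 0.13. No feature in the bins from 6 upward was called.

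Of 48 miRNA loci in the anther table, from 22 families, 34 were tested and 1 was called, MIR399d (2.94% against 0.22% of all features). The median log2 change of the 34 loci was 0.15 beside 0.12 for all features tested. At an unadjusted p under 0.05 stood 8 loci (23.5% against 13.6% of all features), 4 higher and 4 lower. In deposited TPM both ms28 libraries lay above both B73 libraries in 3 loci and below in 11, and 20 overlapped. Over all features tested, 3.63% lay above and 68.3% below. Of the 34, 11 are not in the germ cell table. Over families, 1 of 2 MIR399 loci was called higher, and 0 were called in the MIR2275, MIR2118, MIR171, MIR159, MIR169, MIR167, MIR168, MIR166, MIR398, MIR528 and MIR408 families.

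MIR399 silences a ubiquitin-conjugating enzyme that restrains phosphate uptake, and its precursors are known to accumulate under phosphate starvation. MIR399d read 11.4 and 9.19 TPM in B73 anthers and 121 and 71.3 TPM in ms28 anthers. The ms28 libraries lay far above the B73 libraries, with means of 96.2 ± 35.2 and 10.3 ± 1.55 TPM (SD, n = 2; log2 3.67, SE 0.31, limma adjusted p = 0.045). The call was lost with values as deposited (adjusted p = 0.052), without the filter on low values (0.0515) and without any 1 library (0.064 to 0.276). In germ cells MIR399d overlapped between genotypes and was not tested, at 0.443 and 3.00 TPM in B73 and 0 and 0.837 TPM in ms28. MIR399b, the other member, read 52.3 and 14.4 TPM in B73 anthers and 12.3 and 20.4 TPM in ms28 anthers, with overlapping genotypes. In germ cells it read 0 and 3.79 TPM in B73 and 25.2 and 25.1 TPM in ms28 and was called higher there (log2 3.51, limma adjusted p = 0.0044), having passed the filter through ms28 and 1 B73 library. Whether the loci differ in their change was not tested for this family either.

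None of the 3 MIR2275 precursors passed the threshold. MIR2275a read 6.8 and 7.79 TPM in B73 and 55.4 and 33.6 TPM in ms28, and MIR2275b read 12.7 and 16.4 TPM in B73 and 74.6 and 50.9 TPM in ms28. In both loci the ms28 libraries lay above the B73 libraries without overlap (log2 3.02 and 2.62, SE 0.33 and 0.32, limma adjusted p = 0.076 and 0.091). MIR2275c, the most abundant miRNA locus in these anthers, read 3716 and 1318 TPM in B73 and 762 and 1262 TPM in ms28. In deposited TPM B73 replicate 2 and ms28 replicate 2 nearly coincided, with ms28 below B73 without overlap, as in 68.3% of all features tested. After centring the genotypes overlapped, and the log2 change was -0.57 (95% interval -2.0 to 0.86, limma adjusted p = 0.657). The change was -1.17 with values as deposited, -1.63 with quantile normalization and 0.035 without B73 replicate 1. MIR2275c stood far above the other members in every anther library. Whether the loci differ in their change was not tested. In a fit of all 8 prophase I libraries MIR2275b was called (limma adjusted p = 0.016). That fit adds no anther library and takes its spread from germ cells too, where MIR2275b read 0.614 to 2.29 TPM.

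The 3 MIR2118 precursors overlapped between genotypes in anthers. MIR2118g read 10.5 and 13.0 TPM in B73 and 8.44 and 11.4 TPM in ms28, with a log2 change of 0.38 after centring (95% interval -0.32 to 1.08, limma adjusted p = 0.554) and -0.23 with values as deposited. MIR2118a read 5.44 and 9.01 TPM in B73 and 4.39 and 5.76 TPM in ms28. MIR2118c, the lowest of the family, read 1.76 and 3.58 TPM in B73 and 1.26 and 1.78 TPM in ms28. The intervals of MIR2118a and MIR2118c ran from -0.72 to 1.11 and from -0.88 to 1.08, so changes of up to about this size in either direction were not resolved. In germ cells MIR2118g read 1.53 and 3.62 TPM in B73 and 10.0 and 6.28 TPM in ms28. It was called higher there (log2 1.32, limma adjusted p = 0.025), in a fit that called 11.8% of features higher. MIR2118a and MIR2118c were not called in germ cells (limma adjusted p = 0.182 and 0.090).

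MIR171 targets GRAS transcription factors. MIR171f read 47.0 and 56.1 TPM in B73 and 0 and 4.17 TPM in ms28. The gap between genotypes was wide, with unequal ms28 libraries (log2 -3.92, SE 0.78, limma adjusted p = 0.198). In the fit of all 8 libraries its limma adjusted p was 0.027. That fit adds no anther library and takes its spread from germ cells too, where MIR171f read 0 to 1.58 TPM. MIR171j read 2.06 and 1.99 TPM in B73 and 0.110 and 0.350 TPM in ms28 (log2 -0.70, SE 0.20, limma adjusted p = 0.299). MIR171d overlapped between genotypes, at 79.3 and 18.8 TPM in B73 and 14.6 and 26.3 TPM in ms28. MIR171h reached 1 TPM in 1 library only and was not tested.

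Among the other loci at 10 TPM or more, the B73 libraries often lay farther apart than the genotypes. The 5 tested copies of MIR159, which targets GAMYB-like factors, read 466 to 655 TPM in B73 replicate 1 and 135 to 177 TPM in B73 replicate 2, with ms28 values between them at 172 to 409 TPM. These copies are near-identical in their mature miRNA, and reads they may share leave the level of each uncertain. MIR408b, of a family that targets copper proteins, read 235 and 80.0 TPM in B73 and 232 and 137 TPM in ms28. MIR398a, whose family targets copper superoxide dismutases, read 128 and 48.1 TPM in B73 and 86.2 and 78.2 TPM in ms28. MIR169o, of a family that targets NF-YA factors, read 84.7 and 38.4 TPM in B73 and 28.6 and 54.0 TPM in ms28. MIR528a, of a monocot family, read 50.3 and 58.3 TPM in B73 and 60.2 and 22.4 TPM in ms28. In deposited TPM all of these overlapped, and after centring MIR398a alone among them did not (limma adjusted p = 0.493). MIR167g, whose family silences auxin response factors, lay lower in ms28 in deposited TPM (37.0 and 22.1 against 19.5 and 17.7 TPM) and overlapped after centring. In the germ cell fit MIR169o was called higher and MIR398a lower in ms28 (limma adjusted p = 0.037 and 0.045). The other loci of this paragraph were not called there.

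**Figure D4:**
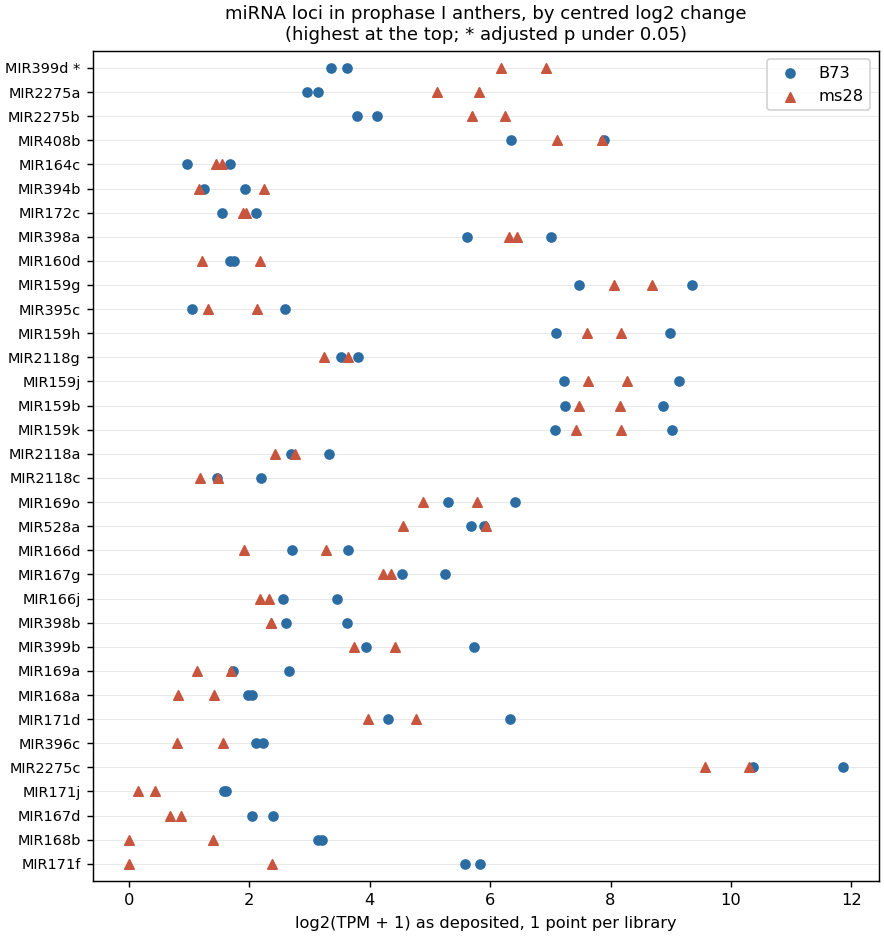
Level (log2(TPM + 1) as deposited) of the 34 tested miRNA loci in the 2 B73 (blue circles) and 2 ms28 (red triangles) prophase I anther libraries, ordered by centred log2 change with the highest at the top. MIR399d, MIR2275a and MIR2275b alone have both ms28 points right of both B73 points. In 11 loci, MIR171f among them, both ms28 points lie left, as in 68.3% of all features tested. The 5 MIR159 copies have their ms28 points between the B73 points.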

How the data were processed

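RNA-seq libraries were made by a Smart-seq type method that does not mark strand, per the labels' protocols, so overlapping antisense transcripts cannot be told apart. Named in the submitters' processing notes are the genome build B73 RefGen_v4 and the tools DESeq2, featureCounts 2.0.1, Cufflinks, HISAT2 2.2.1 and Trimmomatic 0.33, with no role for any of them. The deposited anther values are read here as TPM because each anther column sums to 99.1 to 99.3% of 1000000. The germ cell values are read in the same unit, and their column sums are not given here. The header lines of both give genotype (WT, read as B73) and replicate but no unit. No source used here names the unit of the deposited premeiotic values, which served for ranks only. Depth per library is unknown, so no counting interval is given, and a count model does not apply.

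Features reaching 1 TPM in 2 or more of the 4 anther libraries entered a limma-trend fit (limma 3.58.1, R 4.3.3) of log2(TPM + 1), each library centred on its median tested feature, without a replicate block, with 2 residual and 2.84 prior degrees of freedom; p-values were Benjamini-Hochberg adjusted over all 20946 features. The germ cell table was fitted alone in the same way. An exact permutation test of 2 against 2 libraries cannot go below p = 0.333 and was not used. The fit was also run on simulated data, with changes planted only in features well above absence in B73. Risers near absence in B73 were thus not covered, and the run is not used as support. Figures were drawn with matplotlib 3.10.9 and tables made with pandas 2.3.3 and numpy 2.4.6 in Python 3.11.15.

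Members, lists and the naming rule were chosen with earlier results of these data known. Named were called miRNA loci, all MIR2275, MIR2118, MIR399 and MIR171 loci, other miRNA loci at a mean of 10 TPM or more, and among called gene models up to 2 risers and 2 fallers each by smallest adjusted p (ties by ID), by absence from the germ cell table and by level, with a mean of 10 TPM in the first 2 cases. Same-numbered libraries were not treated as pairs: their deviations correlated at -0.095 over features.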

Additional observations from a re-analysis of the deposited data

How the results depend on the processing

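The 46 calls came to 48 with quantile normalization (45 shared), 64 with a pseudocount of 0.1 (45 shared), 38 without the filter on low values (38 shared) and 41 with a filter at 5 TPM (35 shared). They came to 46, all shared, without the trend or with robust moderation. Values as deposited gave 50 lower calls and 0 miRNA loci, and no filter also gave 0 miRNA loci. The pseudocount of 0.1 gave 7 calls absent from the germ cell table in place of 4. The fit of all 8 libraries covers features in both tables only and called 185 higher and 122 lower, with 3 miRNA loci. Of its 307 calls 150 were shared in direction with germ cells, in place of 35 of 46. It takes its spread from the germ cell libraries too, so this sharing is not independent of the germ cell fit. At an adjusted p under 0.01, and with the replicate number as a replicate block, limma called 0 features in each class, with 2848 and 2401 at an unadjusted p under 0.05. The labels do not say that the numbers mark pairs, and the smallest adjusted p under the block was 0.107. Leaving out 1 library gave 0 to 20 higher and 0 to 55 lower calls, 0 miRNA loci, 0 to 7 calls absent from the germ cell table and 0 to 38 calls shared with germ cells. For MIR2118g, MIR2118c and MIR2118a the log2 change turned to -0.23, -0.50 and -0.41 with values as deposited. That of MIR2118c was also -0.020 with quantile normalization and -0.044 with the pseudocount of 0.1. Leaving out 1 library moved it from -0.41 to 0.61, that of MIR2118a from -0.27 to 0.65 and that of MIR2275c from -1.18 to 0.035. The cause of these shifts was not tested. Of the other single-feature values under all alternatives, 207 kept direction and side of the threshold, 58 kept direction and lost the call, and 3 gained it. With 2 libraries a genotype and no known depth, changes below the size of those called are poorly resolved.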
